A study of Mus musculus with 9 samples.

Results

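The channels that carry calcium into the mast cell and release it from stores inside the cell were followed through 10 genes. These were the ORAI pore genes Orai1, Orai2 and Orai3, the store sensor genes Stim1 and Stim2, the IP3 receptor genes Itpr1, Itpr2 and Itpr3, and the ion channel genes Trpm4 and Kcnn4. They were picked by symbol. All 10 were found among the 47643 genes of the deposited counts, and all 10 were among the 11560 genes kept for testing, which had a median CPM (read count scaled to the size of the library) above 1 over the 9 libraries. The lowest value of any of them in any library was 14.8 CPM, so none passed the filter through a single group.

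The libraries came from bone marrow-derived mast cells (BMMCs), primary mast cells that were grown from the marrow of C57BL/6 mice for at least 4 weeks in medium conditioned by WEHI-3 cells, a line that secretes IL-3. The 3 groups had 3 libraries each. Control cells are described as untreated, IgE+BSA cells carried IgE against the hapten DNP and were stimulated with DNP-BSA, the antigen that crosslinks it, and IgE+BSA+Luteolin cells also received luteolin, a plant flavone. The treatment note, the same for all samples, gives luteolin at 10 μM for 24 h. The sources used here place luteolin before the antigen in one passage and after it in another, and give neither the age or sex of the mice, nor whether Control cells carried IgE, nor whether the 3 libraries of a group were separate cultures. The p-values therefore measure the spread between these libraries, which may be technical.

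Between 9515004 and 24605689 reads were counted on genes per library, lowest in Control replicate 2, and 3 counts corresponded to 0.121 to 0.291 CPM, a limit that covers counting error only. The stimulation label was checked with 3 genes that mast cells induce on activation. Mean Tnf went from 14.8 CPM in Control to 759 CPM in IgE+BSA and 41.9 CPM with luteolin, and Il13 and Egr2 were also called higher in IgE+BSA than in Control and lower with luteolin than in IgE+BSA. Mast cell markers were abundant in every library, the summed level of 8 of them being 34500 to 47000 CPM, and Cd3e of T cells was at 0 in all 9. Of 4 macrophage markers, Adgre1 was at 202 to 259 CPM, Csf1r at 4.62 to 10.3 CPM, and C1qa and Mertk at or below 0.0405 and 0.244 CPM, with a sum of 208 to 212 CPM in Control, 234 to 257 CPM in IgE+BSA and 248 to 268 CPM in IgE+BSA+Luteolin. Control replicate 1 stood apart from the other Control libraries. Over all genes tested it was 203.7 units (Euclidean distance over scaled log2 CPM) from their mean, 133 from that of IgE+BSA+Luteolin and 170.0 from that of IgE+BSA. The summed level of 4 neutrophil markers was 186 CPM in it, 6.59 and 5.28 CPM in Control replicates 2 and 3, 123 to 134 CPM in IgE+BSA and 143 to 169 CPM in IgE+BSA+Luteolin, with Elane at 0 CPM in Control replicate 2, and Mcpt8, a basophil protease gene, was at 432, 21.8 and 18.7 CPM in the Control libraries. The calls in the comparisons with Control are given with and without this library. In such bulk samples, fewer cells of a type and less RNA per cell cannot be told apart.

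Crosslinking of the IgE receptor makes mast cells produce IP3, which opens IP3 receptors in the endoplasmic reticulum and empties its calcium store. STIM proteins in that membrane sense the loss and open ORAI channels in the plasma membrane. This store-operated entry drives degranulation and switches on genes through the calcineurin target NFAT. The voltage across the plasma membrane sets the pull on calcium: the potassium channel encoded by Kcnn4 opens with calcium and keeps the membrane polarised, whereas the channel encoded by Trpm4 opens with calcium, lets in sodium and thereby reduces further calcium entry.

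The stretches of promoter that held a motif searched for are shown because Egr2, which encodes a factor of the EGR family, was among the genes with the largest differences between the groups, and because NFAT is the factor that store-operated entry is best known for. A promoter window was found for 8 of the 10 genes (RefSeq, GRCm38.p6), and the 250 bases before the annotated start were searched on both strands. The core letters bound by EGR factors, GCGTGGG, which read CCCACGC on the other strand, lay in the windows of Stim2, Orai1, Orai2 and Itpr2, that is in 4 of 8, and in 4.3% of the 32851 windows of all genes. The NFAT core GGAAAA, which reads TTTTCC on the other strand, lay in the window of Orai3 alone, with 2 matches, and in 20.4% of all windows. Neither the AP-1 site TGANTCA, present in 6.75% of all windows, nor the CRE core TGACGTC, present in 2.78%, was found in the 8 windows. In these stretches, printed 5′ to 3′ along the gene, capitals mark the matches:
Stim2, plus strand, chr5:53998291-53998347: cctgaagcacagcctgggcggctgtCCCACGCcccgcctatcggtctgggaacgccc
Orai1, plus strand, chr5:123014831-123014887: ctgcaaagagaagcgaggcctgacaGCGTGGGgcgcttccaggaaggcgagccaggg
Orai2, minus strand, chr5:136170817-136170873: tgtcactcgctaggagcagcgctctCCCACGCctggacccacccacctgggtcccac
Itpr2, minus strand, chr6:146502309-146502365: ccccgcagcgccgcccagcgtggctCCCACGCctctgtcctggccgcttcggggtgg
Orai3, plus strand, chr7:127769565-127769613: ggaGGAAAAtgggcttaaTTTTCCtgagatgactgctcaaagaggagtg
The EGR match began 207 bases before the start in Stim2, 218 in Orai1, 192 in Orai2 and 117 in Itpr2. A match is a run of letters and was not tested as a binding site. The windows with the EGR match had 74.8% (Stim2), 70.8% (Orai1), 63.6% (Orai2) and 74.4% (Itpr2) G or C. Those without it had 57.2% (Orai3) to 78.4% (Stim1). The share over all windows was not matched for G and C content. Against IgE+BSA, Stim2 was higher with luteolin, and Orai1, Orai2 and Itpr2 were lower.

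Levels of different genes were compared per kilobase of exon, and on this scale Kcnn4 had the highest level of the 10 genes in every group. Its mean in IgE+BSA was 27.8 ± 0.529 CPM per kb (SD, n = 3). Orai1 followed in that group at 19.4 ± 0.961, then Itpr2 at 15.8 ± 0.467 and Orai3 at 14.0 ± 0.968 CPM per kb, each pair of neighbours without overlap between libraries. Stim1 and Orai2, both at 12.2 CPM per kb, overlapped, and the highest Orai2 library was level with the lowest Orai3 library, both at 13.2 CPM per kb. Itpr3 at 9.64, Stim2 at 7.68, Itpr1 at 3.2 and Trpm4 at 1.6 CPM per kb closed the order, again without overlap. The order depended on the length used. With the longest coding transcript in place of all exons, a choice made after seeing the data, Stim1 moved from rank 5 to rank 2 in IgE+BSA, with 29.1 CPM per kb, while Kcnn4 stayed first and Itpr1 and Trpm4 last in all groups.

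**Figure D1:**
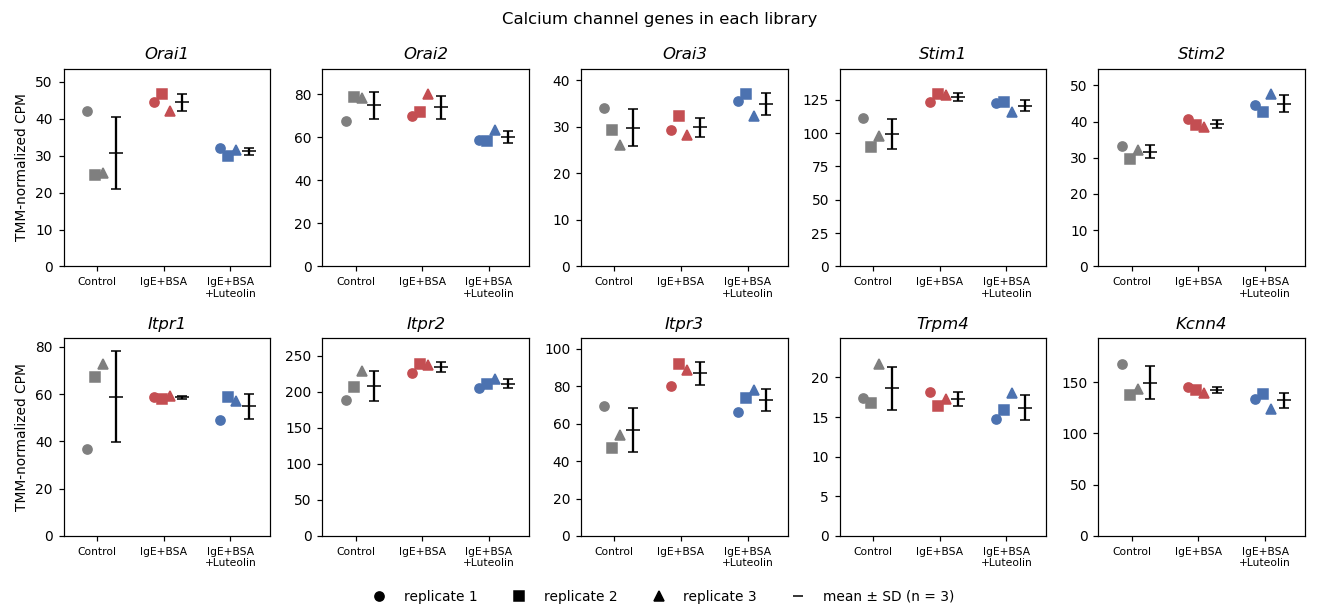
TMM-normalized CPM (vertical axes from 0) of the 10 calcium channel genes in each of the 9 libraries. Symbols mark the replicate number and bars the mean ± SD of the 3 libraries of a group. Orai1 is higher in all IgE+BSA libraries (42.2 to 46.6 CPM) than in all IgE+BSA+Luteolin libraries (30.0 to 32.0 CPM), and Control replicate 1 lies away from the other Control libraries for Orai1, Itpr1 and Itpr3.

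With luteolin, the ORAI genes moved in different directions against IgE+BSA. Orai1 and Orai2 were lower and Orai3 was higher. Of the receptors, Itpr2 and Itpr3 were lower, Stim2 of the sensors was higher, and Stim1, Itpr1, Trpm4 and Kcnn4 did not pass the test. In all, 6 of the 10 genes were called by edgeR's quasi-likelihood test at an adjusted p under 0.05, in a comparison in which 40.0% of all genes tested were called. The calls were 2 higher and 4 lower, against 18.1% and 21.9% of all genes. The libraries of the groups did not overlap for 8 of the 10 genes and for 50.3% of all genes. The median log2 fold change was -0.10 over the 10 genes and 0.02 over all genes tested. Scaling by library size alone shifted the median of all genes to 0.13. It gave 2 higher and 2 lower, against 33.4% and 15.3% of all genes. A correction for gene length gave 2 and 2, against 15.2% and 20.1%, but not the same genes. Orai1 and Orai2 were lower in both settings. The higher genes were Orai3 and Stim2 with library size alone, and Stim2 and Itpr1 with the length correction.

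Orai1 (chr5:123015074-123030456, GRCm38, plus strand) encodes the main pore of store-operated calcium entry. It was at 44.5, 46.6 and 42.2 CPM in the IgE+BSA libraries and at 32.0, 30.0 and 31.5 CPM in the luteolin libraries. All luteolin libraries were thus below all IgE+BSA libraries. The log2 fold change was -0.51 (SE 0.0748, 95% interval -0.67 to -0.35, adjusted p = 5.12e-05 by edgeR), a fold of 0.702, and 84.8% of all genes tested had a smaller change. Its counts were 866 to 985 and 652 to 742 per library.

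Orai2 (chr5:136147459-136170713, minus strand), whose product joins ORAI1 in mixed channels and lowers their current, was at 70.0, 71.9 and 80.0 CPM in IgE+BSA. With luteolin it was at 59.0, 58.1 and 63.3 CPM. No luteolin library reached the lowest IgE+BSA library, and the log2 fold change was -0.30 (SE 0.0686, adjusted p = 0.0028 by edgeR). The calls of Orai1 and Orai2 were lost in 1 of 16 other settings, the fit of all 9 libraries with a shared spread, where adjusted p was 0.122 and 0.0894 by edgeR and 0 of the 10 genes were called (2 at an unadjusted p under 0.05), against 9.46% of all genes. With Control replicate 1 left out of that shared fit, a setting added after seeing the data, adjusted p was 3.19e-05 for Orai1 and 0.00217 for Orai2, and 5 of the 10 genes were called, against 39.8% of all genes.

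Orai3 (chr7:127769815-127775150, plus strand) encodes the third pore subunit, which is found in mammals only. It was at 29.3, 32.2 and 28.2 CPM in IgE+BSA and at 35.4, 36.9 and 32.3 CPM with luteolin. The lowest luteolin library and the highest IgE+BSA library were nearly level, at 32.3 and 32.2 CPM. The log2 fold change was 0.23 (SE 0.0841, adjusted p = 0.0408 by edgeR), and the call was lost in 8 of 16 other settings, such as the length correction (0.10, adjusted p = 0.32).

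Of the sensors, Stim2 (chr5:53998499-54121057, plus strand), which responds to small losses of stored calcium, was at 40.7, 39.1 and 38.4 CPM in IgE+BSA. In the luteolin libraries it was at 44.7, 42.7 and 47.5 CPM, all above every IgE+BSA library. The log2 fold change was 0.19 (SE 0.0724, adjusted p = 0.0443 by edgeR), and leaving out any 1 of the 6 libraries ended the call. Stim1 (chr7:102267806-102437319, plus strand), the sensor needed for most of the entry after receptor crosslinking in mast cells, was at 123, 129 and 129 CPM in IgE+BSA and at 122, 123 and 116 CPM with luteolin. The highest luteolin library and the lowest IgE+BSA library were level, and the log2 fold change of -0.07 (95% interval -0.19 to 0.05, adjusted p = 0.319 by edgeR) did not pass the test.

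Among the IP3 receptors, Itpr2 (chr6:146108299-146502223, minus strand), the type with the highest affinity for IP3, made up most of the receptor transcripts per kilobase. It was at 226, 239 and 237 CPM in IgE+BSA and at 206, 212 and 217.5 CPM with luteolin. Every luteolin library was lower, by a log2 fold change of -0.14 (SE 0.0539, adjusted p = 0.0433 by edgeR), the smallest change among the 6 genes called. The length correction turned it to 0.10 (adjusted p = 0.157 by edgeR), and the call was lost when any library except IgE+BSA+Luteolin replicate 3 was left out. Itpr2 has 14802 bases of exon, against 2295 for Orai1.

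Itpr3 (chr17:27057304-27122223, plus strand), the type with the lowest affinity for IP3, was at 80.2, 92.0 and 88.7 CPM in IgE+BSA and at 66.4, 73.8 and 78.2 CPM with luteolin. The groups did not overlap, and the log2 fold change was -0.25 (SE 0.0723, adjusted p = 0.0108 by edgeR). The call was lost in 4 of 16 other settings, among them the fits without IgE+BSA+Luteolin replicate 1 (-0.20, adjusted p = 0.069) and with the length correction (-0.13, adjusted p = 0.143). Itpr1 (chr6:108213096-108551109, plus strand), the main type in neurons, was at 58.6, 58.0 and 59.2 CPM in IgE+BSA and at 48.9, 58.7 and 56.9 CPM with luteolin. The groups overlapped, the log2 fold change being -0.09 (95% interval -0.25 to 0.06, adjusted p = 0.337 by edgeR), and with the length correction it was 0.19 (adjusted p = 0.0384). An antisense gene covers 2.58% of the exon bases of Itpr3, and such genes cover under 1% each of those of Itpr1 and Orai1.

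The genes of both calcium-activated channels stayed without a call. Trpm4 (chr7:45302632-45333780, minus strand) was at 18.2, 16.5 and 17.3 CPM in IgE+BSA and at 14.8, 15.9 and 18.0 CPM with luteolin, and these ranges overlapped. Kcnn4 (chr7:24370263-24386690, plus strand) was at 145, 143 and 139.6 CPM in IgE+BSA and at 134, 138.5 and 124 CPM with luteolin. The Kcnn4 ranges did not overlap, but the log2 fold change of -0.11 (95% interval -0.23 to 0.02, adjusted p = 0.16 by edgeR) missed the threshold. For Trpm4 it was -0.09 (95% interval -0.32 to 0.13, adjusted p = 0.509).

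Between the same groups, the libraries did not overlap for 7 of the 8 mast cell markers, against 50.3% of all genes tested. Of these 7, 4 were higher and 3 lower with luteolin. The summed level of the 8 markers was 34500 to 37100 CPM in IgE+BSA and 40700 to 47000 CPM with luteolin. Of the 4 neutrophil markers, 2 were higher with luteolin. Of both basophil markers, Prss34 was higher and Mcpt8 overlapped, with a sum of 805 to 888 CPM in IgE+BSA and 909 to 1020 CPM with luteolin. Of both eosinophil markers, Siglecf was lower and Epx overlapped, with a sum of 9.7 to 12 CPM in IgE+BSA and 5.7 to 6.92 CPM with luteolin. The 4 macrophage markers all overlapped. The part of these markers in the differences of the channel genes was not tested.

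**Figure D2:**
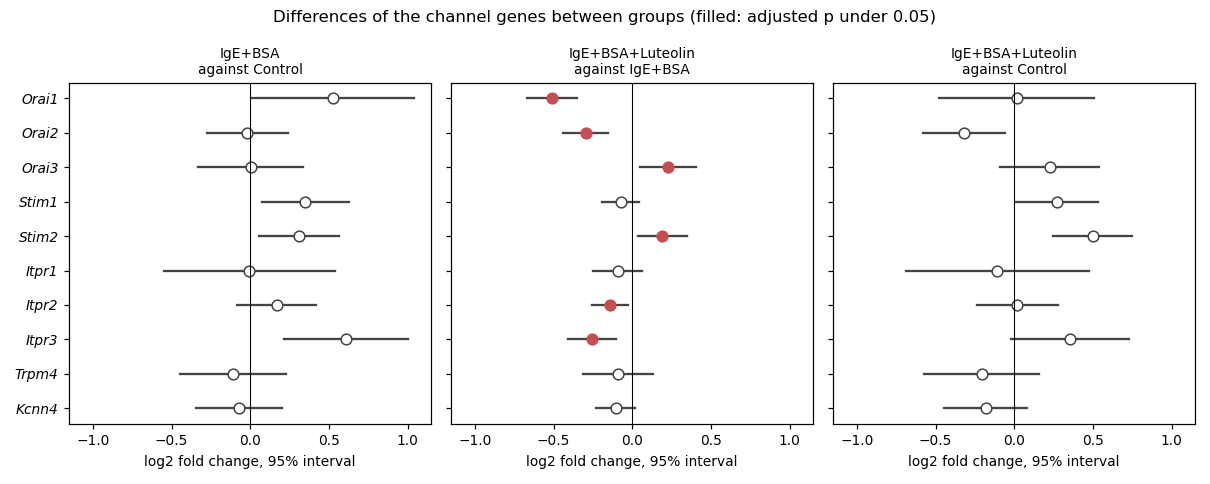
Log2 fold changes of the 10 calcium channel genes (horizontal axis) in the 3 comparisons, with 95% intervals from edgeR. Filled points have an adjusted p under 0.05. In the middle panel, 6 genes are filled, from Orai1 at -0.51 to Orai3 at 0.23, and no point is filled in either comparison with Control, where the intervals are wider.

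In IgE+BSA against Control, Itpr3, Orai1, Stim1 and Stim2 were higher in all IgE+BSA libraries than in all Control libraries, but edgeR called 0 of the 10 genes, against 3.27% of all genes tested (2.25% higher and 1.02% lower). At an unadjusted p under 0.05 there were 4, DESeq2 called 1, Itpr3, where it called 10.6% of all genes, and limma called 0, next to 3.41% of all genes. The libraries did not overlap for these 4 genes, and for 28.7% of all genes. The median log2 fold change was 0.09 over the 10 genes and 0.02 over all genes.

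Itpr3 was at 69.7, 46.8 and 53.8 CPM in the Control libraries, against 80.2 to 92.0 CPM in IgE+BSA. Its log2 fold change was 0.61 (SE 0.167, adjusted p = 0.104 by edgeR), the largest of the 10. Orai1 was at 42.0, 24.8 and 25.3 CPM in Control. Control replicate 1 was thus level with the lowest IgE+BSA library (42.2 CPM), and the log2 fold change was 0.53 (SE 0.221, adjusted p = 0.24 by edgeR). Stim1 was at 111, 89.4 and 97.6 CPM in Control, giving 0.35 (SE 0.118, adjusted p = 0.159 by edgeR), and Stim2 at 33.2, 29.6 and 32.2 CPM, giving 0.31 (SE 0.109, adjusted p = 0.172). All Control libraries of both sensors were below those of IgE+BSA.

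The other 6 genes had Control libraries on both sides of the IgE+BSA libraries or overlapping them. Itpr1 was at 36.9, 67.0 and 72.8 CPM in Control, so that Control replicate 1 was below and the other Control libraries above all IgE+BSA libraries (58.0 to 59.2 CPM). Without Control replicate 1, Itpr1 was lower in IgE+BSA than in Control by a log2 fold change of -0.31 (adjusted p = 0.0037 by edgeR). In that setting Orai1 (0.78, adjusted p = 1.23e-05), Itpr3 (0.73, adjusted p = 1.48e-05), Stim1 (0.39) and Stim2 (0.29) were called higher, 5 of the 10 genes in all, and 45.0% of all genes were called (22.6% higher and 22.4% lower). Orai2, Orai3, Itpr2, Trpm4 and Kcnn4 were not called in either setting, with log2 fold changes between -0.11 and 0.17 when all Control libraries were used. The intervals with all libraries were wide, for Orai3 -0.33 to 0.34. With Control replicate 1 left out, only Control replicates 2 and 3 remained. Their summed neutrophil markers were at 6.59 and 5.28 CPM, against 123 to 134 CPM in IgE+BSA. Mcpt8 was at 21.8 and 18.7 CPM in them, against 292 to 330 CPM in IgE+BSA. The part of these markers in the calls was not tested.

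In IgE+BSA+Luteolin against Control, which compares stimulated cells under luteolin with untreated cells, edgeR again called 0 of the 10 genes, against 3.04% of all genes (0.285% higher and 2.75% lower). At an unadjusted p under 0.05 there were 3, DESeq2 called 1, where it called 11.9% of all genes, and limma called 0, next to 2.77% of all genes. The libraries did not overlap for 3 of the 10 genes and for 28.5% of all genes. Stim2, the gene that DESeq2 called (adjusted p = 0.000957), was at 29.6 to 33.2 CPM in Control and 42.7 to 47.5 CPM with luteolin, a log2 fold change of 0.50 (SE 0.107, adjusted p = 0.0576 by edgeR) and a fold of 1.41. Orai2 was at 67.6, 78.9 and 78.2 CPM in Control, all above the luteolin libraries (58.1 to 63.3 CPM), with a log2 fold change of -0.32 (SE 0.111, adjusted p = 0.157 by edgeR). Stim1 was higher in all luteolin libraries, by 0.27 (adjusted p = 0.201).

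Orai1 differed little on average between these groups, with means of 31.2 ± 1.01 and 30.7 ± 9.81 CPM (SD, n = 3), but the Control libraries lay on both sides. Without Control replicate 1, 7 of the 10 genes were called and 60.0% of all genes were (29.9% higher and 30.1% lower). Orai1 (0.30, adjusted p = 0.0104 by edgeR), Orai3 (0.34), Stim1 (0.35), Stim2 (0.52) and Itpr3 (0.51) were then higher with luteolin than in Control, and Orai2 (-0.39) and Itpr1 (-0.36) lower. Both comparisons with Control use the same Control libraries. Summed neutrophil markers were at 6.59 and 5.28 CPM in Control replicates 2 and 3, against 143 to 169 CPM with luteolin. The part of these markers in the calls was not tested.

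Within a library, the ratio of 2 genes does not depend on the scaling between libraries, although a bias with gene length can move it. The log2 ratio of Orai3 to Orai1, per kilobase of exon, was -0.51, -0.43 and -0.48 in IgE+BSA, 0.25, 0.40 and 0.14 with luteolin, and -0.21, 0.34 and 0.14 in Control. With this length, Orai1 exceeded Orai3 in every IgE+BSA library and Orai3 exceeded Orai1 in every luteolin library. With the longest coding transcript as length, a choice made after seeing the data, the values were -0.80, -0.73 and -0.77 in IgE+BSA and -0.04, 0.11 and -0.16 with luteolin, so that Orai3 was above Orai1 in luteolin replicate 2 only. The difference between groups is the same with either length. The ratio was 1.66-fold higher with luteolin than in IgE+BSA, in 3 of 3 libraries against 3 of 3 (exact permutation p = 0.1, two-sided, the smallest p that 3 against 3 libraries allow, and 0.3 after adjustment over 12 tests). Against Control, the ratio in IgE+BSA was 0.675-fold (exact permutation p = 0.1, adjusted 0.3), a log2 difference of -0.57, or -0.72 without Control replicate 1.

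The percent shares of the ORAI transcripts show the same values in another form. Orai1 made up 41.1% to 43.5% of the ORAI sum per kilobase in IgE+BSA and 32.8% to 35% with luteolin, and Orai3 29.4% to 31.9% and 38.4% to 43.2%. The Orai2 share was 25.1% to 29.4% and 24% to 26.6%, and these ranges overlapped. With the longest coding transcript, Orai3 made up 23.6% to 26% in IgE+BSA and 31.6% to 36.1% with luteolin. In Control, per kilobase of exon, Orai1 made up 40.4% in replicate 1 but 28.8% and 30.6% in replicates 2 and 3. For the sensors, the ratio of Stim2 to Stim1 was 1.2-fold higher with luteolin than in IgE+BSA, without overlap (exact permutation p = 0.1, adjusted 0.3). That is a log2 difference of 0.27, which the length correction, applied here after seeing the data, brought to 0.11. It left the difference of the Orai3 to Orai1 ratio at 0.73. The correction depends on exon length, which is 2141 bases for Orai3 and 2295 for Orai1. It could therefore hardly move this ratio.

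**Figure D3:**
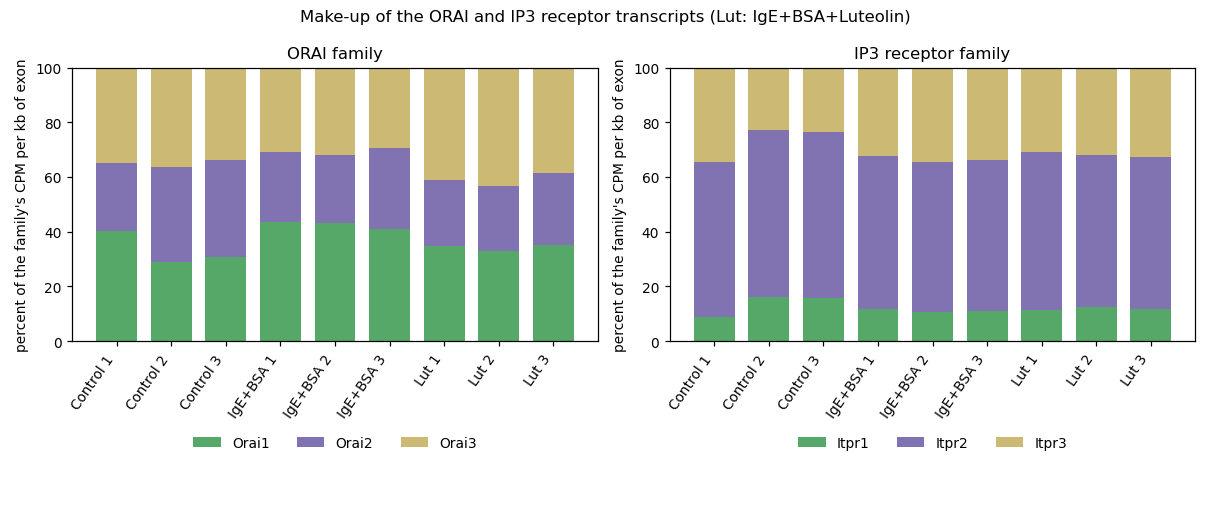
Share of each gene (vertical axis, percent) in the summed CPM per kb of exon of the ORAI family (left) and the IP3 receptor family (right), for each of the 9 libraries, with Lut for IgE+BSA+Luteolin. Orai3 takes 29.4% to 31.9% in IgE+BSA and 38.4% to 43.2% with luteolin, and Control replicate 1 differs from the other Control libraries in both families.

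Itpr2 was the main IP3 receptor transcript, at 54.7% to 61.2% of the sum of the 3 receptor genes per kilobase in all 9 libraries. Itpr1 made up 8.98% in Control replicate 1, 16% and 15.6% in the other Control libraries, 10.7% to 11.7% in IgE+BSA and 11.2% to 12.5% with luteolin. Itpr3 was at 34.4% in Control replicate 1 and at 22.7% and 23.4% in the other Control libraries, against 32.5% to 34.6% in IgE+BSA. The Itpr1 ranges of IgE+BSA and luteolin overlapped.

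A list of 70 other genes that make or remove IP3, regulate these channels, or move calcium was examined in the same fits, and 51 of them were tested. With luteolin against IgE+BSA, 20 of the 51 were called, 9 higher and 11 lower, next to the 40.0% called among all genes. Scaling by library size alone gave 21 higher and 7 lower, next to 33.4% and 15.3% of all genes. Their median log2 fold change was 0.01, against 0.02 over all genes.

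Among the 5 genes for making and removing IP3 that were tested, 1 was higher and 2 were lower with luteolin. Itpkb, a kinase that converts IP3 to IP4 and so removes the ligand of the receptors, was at 73.8, 63.4 and 70.1 CPM in IgE+BSA, and at 39.6, 37.6 and 37.9 CPM with luteolin. In Control it was at 37.2, 48.0 and 45.0 CPM. The IgE+BSA libraries stood above all others. The log2 fold change was -0.85 with luteolin (SE 0.072, adjusted p = 7.06e-08 by edgeR) and 0.67 in IgE+BSA against Control (SE 0.128, adjusted p = 0.0394), where Itpkb was the only 1 of the 51 genes called. That call was lost in 9 of 15 other settings and kept without Control replicate 1 (0.53, adjusted p = 0.00023 by edgeR). Plcg1, which makes IP3, was higher with luteolin by 0.14 (adjusted p = 0.0362).

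Of 12 regulators of STIM, ORAI and the IP3 receptors, 3 were higher and 3 lower with luteolin. Tespa1, whose product binds IP3 receptors, was at 112, 91.5 and 141 CPM in IgE+BSA and at 58.0, 58.7 and 66.5 CPM with luteolin, a log2 fold change of -0.91 (SE 0.111, adjusted p = 6.92e-06 by edgeR). Its luteolin libraries were below those of both other groups. Ahcyl1, which encodes IRBIT, a protein that competes with IP3 for its receptor, was lower by -0.37 (adjusted p = 0.000965). Erlin1, which takes part in the degradation of active IP3 receptors, was at 21.1, 24.4 and 22.6 CPM in IgE+BSA and 31.9, 31.5 and 30.5 CPM with luteolin, higher by 0.47 (SE 0.0847, adjusted p = 0.000381). Saraf, whose product inactivates store-operated entry, was higher by 0.19 (adjusted p = 0.0251), a call that ended with the length correction (0.095, adjusted p = 0.192).

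Of 14 other calcium-permeable channel genes, 2 were higher and 4 lower with luteolin. Mcoln2, a channel of endosomes and lysosomes, was at 6.96, 6.45 and 8.73 CPM in IgE+BSA and at 5.92, 4.62 and 3.96 CPM with luteolin, a log2 fold change of -0.61 (SE 0.189, adjusted p = 0.0174 by edgeR). Its groups did not overlap, and the call was lost without IgE+BSA replicate 3 or without IgE+BSA+Luteolin replicate 2 or 3 (adjusted p from 0.0516 to 0.0889). P2rx4, an ATP-gated channel, was higher by 0.33 (adjusted p = 0.000253). Of the 2 tested genes that set the membrane voltage, Kcna3, the voltage-gated potassium channel known from T cells, was lower. It was at 12.4, 11.8 and 13.6 CPM in IgE+BSA and at 4.24, 5.47 and 6.14 CPM with luteolin (log2 fold change -1.25, SE 0.153, adjusted p = 6.88e-06), and its Control libraries spanned 3.11 to 17.9 CPM, with replicate 1 the lowest. In the fit of all 9 libraries, which includes the Control libraries in the spread, its call was lost (adjusted p = 0.141 by edgeR).

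Of 7 genes for pumps and exchangers, 1 was lower, Atp2a2 (-0.28, adjusted p = 0.000789 by edgeR), which encodes a pump that refills the store. Atp2a3 of the same family had a mean of 839 CPM in IgE+BSA, against 479 CPM for Atp2a2. It was not called (-0.03, adjusted p = 0.701 by edgeR). Of 7 genes for mitochondrial uptake, Micu2 (0.25) and Smdt1 (0.21) were higher, and of 4 sensor and buffer genes, Calr, the calcium buffer of the endoplasmic reticulum, was higher (0.17, adjusted p = 0.0348). With the length correction the calls of Smdt1 (0.046, adjusted p = 0.601 by edgeR) and Calr (0.067, adjusted p = 0.294) ended. In IgE+BSA+Luteolin against Control, edgeR called 0 of the 51 genes, with 7 at an unadjusted p under 0.05, 4 called by DESeq2 and 0 by limma, next to 3.04%, 11.9% and 2.77% of all genes called by edgeR, DESeq2 and limma. Without Control replicate 1, 29 of the 51 were called in that comparison and 19 in IgE+BSA against Control, next to the 60.0% and 45.0% called among all genes.

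**Figure D4:**
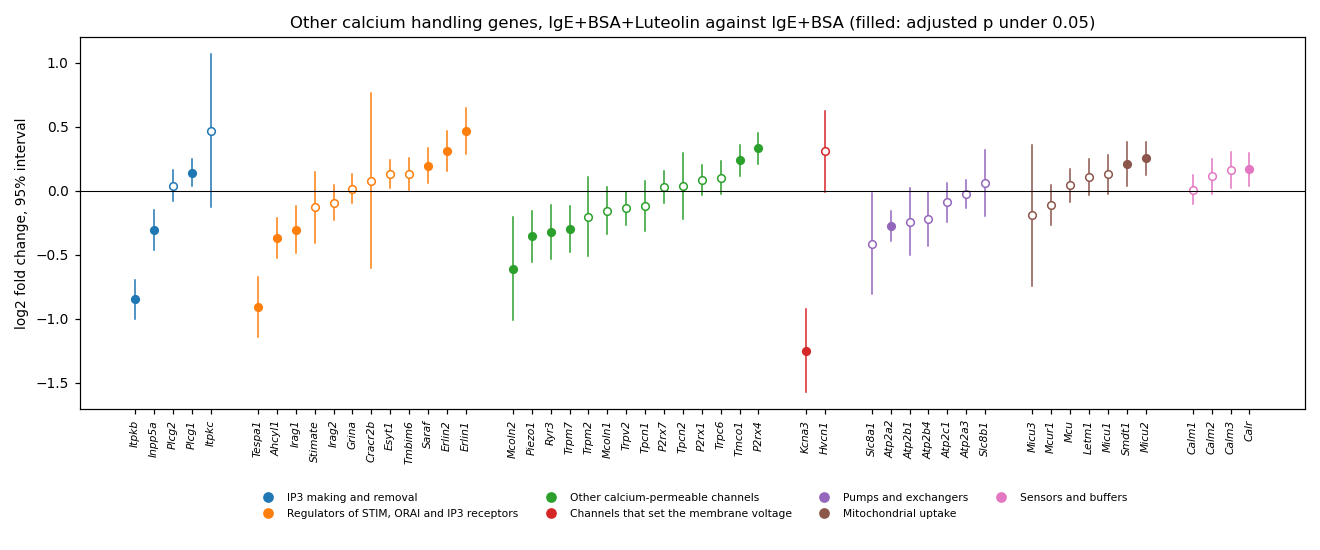
Log2 fold changes (vertical axis) with 95% intervals of the 51 other calcium handling genes tested, IgE+BSA+Luteolin against IgE+BSA, grouped by role. Filled points have an adjusted p under 0.05. The 9 higher and 11 lower genes are spread over the roles, Kcna3 being lowest at -1.25 and Erlin1 highest of the filled points at 0.47.

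The genes most like each channel gene were sought over the 9 libraries among 8391 protein-coding genes with at least 10 CPM on average. The closest to Orai1 was Hilpda, a lipid droplet gene, with a Pearson r of 0.996 on log2 CPM, followed by Rrp8 with 0.978. Tet2 (0.984) was closest to Orai2, Capzb (0.984) to Orai3, Pole (0.985) to Stim1, Gpr65 (0.98) to Stim2, Eif4b (0.982) to Itpr1, Depdc5 (0.976) to Itpr2 and Cluh (0.988) to Itpr3. Trpm4 and Kcnn4 had no gene that close, with 0.901 for Wdr62 and 0.95 for Nfkbil1. With 9 points in 3 groups, and Control replicate 1 among them, such values are descriptions only.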

How the data were processed

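RNA of BMMCs was measured in 3 groups of 3 libraries, grouped by the titles of the samples. Libraries were made with a stranded mRNA kit. HTStream was used by the authors to clean the reads, STAR 2.7.0f aligned these to mm10 (submitters' processing notes), and the authors deposited the raw counts of each Ensembl gene. The column names point to htseq-count, and its strand setting and the annotation release are not given in the sources used here, so reads of overlapping antisense genes cannot be told apart. The deposited counts held 47643 genes, of which 47224 matched GENCODE vM21 (GRCm38), the source of symbols, coordinates and exon lengths.

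The main test was that of edgeR 4.0.16 in R 4.3.3 (TMM factors, quasi-likelihood test, two-sided, Benjamini-Hochberg adjustment, threshold 0.05), fitted to the 6 libraries of each comparison and the 11560 genes whose median CPM exceeded 1. The method was tested on simulated data. CPM values are TMM-normalized, and log2 values for likeness used a prior count of 2. Ratios within a family were compared by exact permutation tests. Alternatives were DESeq2 1.42.0, limma 3.58.1 (limma-trend), other scaling, no filter, all 9 libraries in the fit, a replicate block, a correction for exon length and each library left out. A fit of 8 libraries without Control replicate 1 and the longest coding transcript as length were added after seeing the data. Depth was 9515004 to 24605689 counts. Replicates differed beyond sampling noise (chi-square over degrees of freedom at least 4.05 for each pair).

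The members, the list of calcium handling genes and the tests were chosen with earlier results of these data known. All 10 members are named. From the list, up to 6 called genes with the largest change are named by rule in each comparison, and Plcg1, Saraf, P2rx4, Atp2a2, Micu2, Smdt1 and Calr were chosen after their values were seen. For each member, the 2 genes with the highest Pearson r were sought. Promoter windows came from RefSeq (GRCm38.p6) and matched 8 of the 10 genes.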

Additional observations from a re-analysis of the deposited data

How the results depend on the processing

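In IgE+BSA+Luteolin against IgE+BSA, the calls of Orai1 and Orai2 were kept in 15 of 16 other settings each, that of Itpr3 in 12, those of Orai3 and Stim2 in 8 each and that of Itpr2 in 5. Of the 10 channel genes, 6 were called, against 0 in the edgeR fit of all 9 libraries (2 at an unadjusted p under 0.05) and 2 to 5 when 1 library was left out, while DESeq2 called 4 and limma 6. Of all genes, 40.0% were called, 9.46% in the fit of all 9 libraries, 28% to 44% with 1 library left out, 38.3% by DESeq2 and 40.1% by limma. The fit of all 9 libraries called 4 of the 51 other calcium handling genes in place of 20, with the same difference between the groups and a spread that includes the Control libraries, and leaving out 1 library gave 12 to 28. Signs turned with library size alone for Stim1 (0.040), Itpr1 (0.021), Trpm4 (0.021) and Kcnn4 (0.0073). They turned with the length correction, alone or with the replicate block, for Stim1 (0.090 and 0.088), Itpr1 (0.19 and 0.19), Itpr2 (0.10 and 0.10) and Trpm4 (0.078 and 0.078).

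In IgE+BSA against Control, DESeq2 called 1 channel gene, the edgeR fit of all 9 libraries 2, and leaving out 1 library gave 0 to 5, the highest without Control replicate 1. In place of 1 other calcium handling gene, DESeq2 called 6, the unfiltered fit 3 and the fit of all 9 libraries 5, next to 10.6%, 2.74% and 9.56% of all genes. With relative log expression factors, library size alone, the replicate block, or the block with the length correction, 0 were called by edgeR (9 to 15 at an unadjusted p under 0.05), next to 373, 464, 144 and 211 of all 11560 genes, and leaving out 1 library gave 0 to 19, next to 0.779% to 45.0% of all genes. Signs of genes near 0 turned for Orai3 with DESeq2 (-0.035), relative log expression factors (-0.035) and library size alone (-0.17), for Itpr2 with library size alone (-0.010), for Orai2 without the filter (0.033), and for Itpr1 with limma (0.052), without the filter (0.055) and with the replicate block (0.049). With 1 library left out, the log2 fold change of Orai2 ranged from -0.14 to 0.020, of Orai3 from -0.091 to 0.073, of Itpr1 from -0.31 to 0.18 and of Trpm4 from -0.23 to 0.013.

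In IgE+BSA+Luteolin against Control, Stim2 was the 1 channel gene called by DESeq2, without the filter, in the fit of all 9 libraries and with the length correction, and 7 were called without Control replicate 1, the range with 1 library left out being 0 to 7. Of the other calcium handling genes, DESeq2 called 4, the fit of all 9 libraries 3, and the unfiltered fit and the length correction 1 each, with 0 to 29 when 1 library was left out, next to 11.9%, 10.8%, 3.65%, 5.66% and 0.0173% to 60.0% of all genes. Signs turned for Orai1 with library size alone (-0.031), the length correction (-0.025) and that correction with the block (-0.0054), for Itpr2 with library size alone (-0.041), and for Itpr1 with the length correction (0.12) and with the block added (0.12). With 1 library left out, Orai1 ranged from -0.11 to 0.30, Itpr1 from -0.36 to 0.084 and Itpr2 from -0.055 to 0.10. The causes of these differences between settings were not tested.

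Whether replicate numbers paired the samples was not tested. Deviations from the group means of same-numbered libraries correlated at -0.0236, 0.175 and 0.283 between IgE+BSA and IgE+BSA+Luteolin. IgE+BSA+Luteolin replicates 2 and 3 correlated best with the IgE+BSA library of their own number. IgE+BSA+Luteolin replicate 1 correlated best with IgE+BSA replicate 2 (0.149). With the replicate block, 6 channel genes and 26 of the 51 other calcium handling genes were called in that comparison, next to 48.3% of all genes. Without the block, the values were 6, 20 and 40.0%. The ratios within a family were examined on raw counts, with 1 library left out and, after the data were seen, with the length correction for those of 2 genes. The sign turned only for Stim2 to Stim1 in IgE+BSA against Control, a log2 difference of -0.044 that became 0.061 with the length correction. The named calcium handling genes were examined in the same settings after the data were seen. None changed its sign, and the calls of Plcg1, Saraf, Smdt1 and Calr were each lost in 4 of the 6 fits that left out 1 library. In the fit of all 9 libraries, only Itpkb, Tespa1 and Erlin1 of the named genes kept their calls with luteolin against IgE+BSA.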
